A study of Mus musculus with 24 samples.

Results

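CD8 T cells lacking Pou2af1 were compared with control CD8 T cells by poly(A) RNA sequencing, over all genes. The comparison used 8 of the 24 libraries of the series, 4 from KO cells and 4 from WT cells, chosen by the cell type and genotype in their labels. KO cells carried CD4.Cre+ with both alleles floxed (Pou2af1fl/fl), and WT cells were CD4.Cre- with both alleles floxed, although their titles write +/+. The remaining 4 CD8 libraries, here Het, carried CD4.Cre+ with 1 floxed allele (Pou2af1fl/+) and entered the same fit. All mice were C57BL/6 and 12 weeks old, and all cells were sorted from spleen and activated in culture for 2 days with antibodies to CD3 and CD28. Since every KO library carries Cre and no WT library does, loss of Pou2af1 and presence of Cre cannot be told apart in KO against WT. CD4-driven Cre acts in thymocytes that hold both coreceptors, so it reaches the CD8 lineage too.

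Pou2af1 encodes a coactivator without a DNA-binding domain of its own. It is recruited to octamer sites by POU2F1 or POU2F2, factors of the POU class, and its main known role is in B cells, where germinal centres depend on it. Activated CD8 T cells build granzymes, perforin and interferon gamma while they divide, and lists of genes for these programmes and for metabolism, stress and interferon responses were followed here.

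The libraries held high levels of CD8 transcripts and low levels of Cd4. Cd8a lay between 651 and 670 normalised counts per megacount of library total (CPM) in KO and between 640.0 and 703 CPM in WT libraries, and Cd4 between 0.210 and 1.39 CPM in KO and between 0.379 and 1.74 CPM in WT. Neutrophil markers summed to at most 0.140 CPM in KO and 0.0632 CPM in WT, with S100a8, S100a9, Camp, Ngp and Retnlg at 0 in all 8 libraries, and the NK receptor gene Ncr1 reached 0.122 CPM in KO and was 0 in WT. The 8 NK markers together summed to between 55.8 and 84.8 CPM in KO and between 55.7 and 69.7 CPM in WT, the 7 plasma cell markers to between 628 and 919 CPM in KO and between 678 and 819.5 CPM in WT, and the 6 regulatory T cell markers to between 1241 and 1831 CPM in KO and between 1271 and 1702 CPM in WT. Activated T cells share some of these markers, such as Il2ra and Ctla4, and the part of such cells in the results was not tested. The 13 B cell markers summed to between 393 and 436 CPM in KO and between 386 and 466 CPM in WT. Library totals over genes were 14.4 to 16.6 megacounts in KO, 13.3 to 14.7 megacounts in Het and 12.6 to 15.9 megacounts in WT, and no library measure (total counts, mitochondrial, ribosomal and summary-line shares, genes detected) gave an exact 2-sided permutation p below 0.314, where 4 against 4 libraries allow 0.0286. By Xist against Ddx3y, KO and WT each held 1 female and 3 male libraries (with sex as a covariate the number of genes called stayed at 8), and the female library was replicate 2 in KO and replicate 3 in WT. KO replicate 2 stood apart, at a root mean square log2 distance of 0.533 from the other KO libraries against 0.321 to 0.387 for those, and a list median below that turned sign or moved by over 1.5 times without it is given both ways.

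Very few genes separated KO from WT cells. Of 12612 genes tested, edgeR's quasi-likelihood F test called 8 (Benjamini-Hochberg adjusted p under 0.05), which is 0.0634% of the genes, 4 higher (0.0317%) and 4 lower (0.0317%). The 4 that rose were Rps3a3, Tpm3-rs7, Gm8778 and 2010007H06Rik, and the 4 that fell were Pou2af1, Rps3a1, Tpm3 and Cd1d1. An unadjusted p under 0.05 was reached by 364 genes (2.89%), where 630.6 would be expected by chance. That number rested on single libraries: it was 215 without KO replicate 2, 241 without WT replicate 3 and 806 without KO replicate 3, and 613 with replicates 1 and 2 against 3 and 4 as a covariate. In 129 genes (1.02%) every KO library lay above every WT library, and in 120 genes (0.951%) every KO library lay below. The median log2 change over all tested genes was 0.0026. The labels do not say that replicates are separate animals, so p-values measure the spread between these libraries, part of which may be technical.

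**Figure D1:**
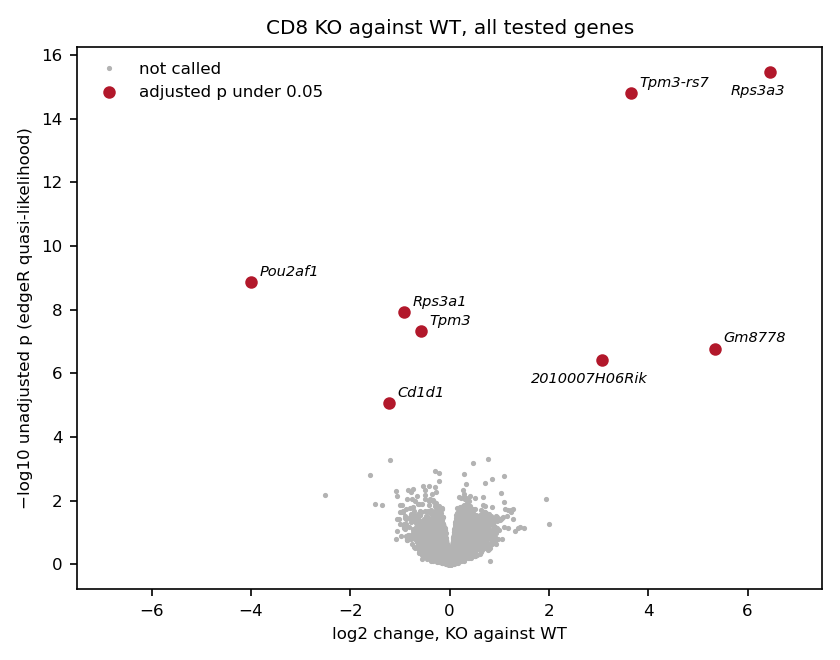
Each point is 1 of the 12612 tested genes, with the log2 change of KO against WT on the x axis and the −log10 of the unadjusted p of edgeR's quasi-likelihood test on the y axis. The 8 called genes (red) stand clear of the grey cloud: 4 on the left lower in KO and 4 on the right higher in KO.

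The targeted gene followed its labels in every library. Pou2af1 (ENSMUSG00000032053.8, GRCm38 chromosome 9, 51213708 to 51240080) had raw counts of 36, 35, 21 and 11 in KO libraries, 221, 190, 215 and 230 in Het libraries and 290, 295, 551 and 440 in WT libraries. The 3 genotypes did not overlap. It averaged 1.71 ± 0.757 CPM in KO, 15.5 ± 1.34 CPM in Het and 27.6 ± 6.04 CPM in WT cells (SD, n = 4 each), so KO cells held 6.21% and Het cells 55.9% of the WT mean. The log2 change was -4.0 in KO against WT (SE 0.26, edgeR quasi-likelihood adjusted p = 5.66e-06). In bulk RNA, fewer cells with the transcript and less transcript per cell cannot be told apart, so the remaining counts do not say how many cells kept the gene.

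The next gene on chromosome 9 to be called was a noncoding neighbour. 2010007H06Rik (ENSMUSG00000044694.2, 51278513 to 51284210) is annotated as antisense and overlaps Colca2 (51270258 to 51279651). It had 76, 76, 71 and 71 counts in KO libraries, 53, 62, 56 and 54 in Het libraries and 1, 10, 12 and 10 in WT libraries. KO libraries all lay above Het libraries, and these all lay above WT libraries, though KO against Het gave no call for this gene. It averaged 4.95 ± 0.276 CPM in KO, 4.06 ± 0.310 CPM in Het and 0.579 ± 0.338 CPM in WT cells (SD, n = 4 each), a log2 change of 3.06 in KO against WT (SE 0.32, edgeR quasi-likelihood adjusted p = 0.000673). The call was lost with replicates 1 and 2 alone (edgeR quasi-likelihood adjusted p = 0.207). Whether the counting used strand is not given in the sources used here; its reads thus cannot be told apart from those of overlapping genes. The overlapping gene Colca2 and the neighbouring gene 1810046K07Rik had at most 1 count in any CD8 library, against a floor of 3 counts.

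No other gene near the targeted locus was called. Of the 21 tested genes within 1 Mb of Pou2af1, the other 19 had adjusted p-values near 1. The cytokine gene Il18 had a log2 change of 0.58 (SE 0.39), with KO libraries at 1.28, 0.975, 0.701 and 0.621 CPM and WT libraries at 0.303, 0.475, 0.632 and 0.965 CPM, which overlap. Sdhd, a subunit of succinate dehydrogenase, had a log2 change of -0.08 (SE 0.08), and the salt-inducible kinase gene Sik2 had 0.02 (SE 0.08). Dlat, of the pyruvate dehydrogenase complex, and Rdx, which links membranes to actin, both had -0.00 (SE 0.07 and 0.08).

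Of the 4 genes that rose, 3 are copies of other genes, and 2 of the genes they copy fell. Rps3a3 (ENSMUSG00000059751.7, GRCm38 chromosome 13, 108670603 to 108671397) is annotated as a processed pseudogene, an intronless copy of a transcript. Its transcript matched that of Rps3a1, a protein of the small ribosomal subunit (ENSMUSG00000028081.6, chromosome 3, 86137940 to 86142702), at 98.868% identity over 795 bases, with 9 mismatches. Tpm3-rs7 (ENSMUSG00000058126.7, chromosome 14, 113314608 to 113316754) matched Tpm3, a tropomyosin that winds along actin filaments (ENSMUSG00000027940.18, chromosome 3, 90072649 to 90100902), at 99.099% identity over 2108 bases, with 13 mismatches. Gm8778 (ENSMUSG00000079223.3, chromosome 6, 128976866 to 128977972), also a processed pseudogene, had as its nearest protein-coding gene Isg20l2, an exonuclease of ribosomal RNA processing (chromosome 3, 87930314 to 87940686), at 91.986% identity over 1123 bases, with 58 mismatches. All 3 of these nearest genes lie on chromosome 3, and so does Cd1d1, the eighth called gene. The alignments also held gap bases, which count against identity, 6 for Tpm3-rs7 and 32 for Gm8778. 2010007H06Rik had no match in another protein-coding gene.

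The 120 coding bases that differ most between each copy and its gene are shown, since differing bases are one means of assigning reads. They come from GENCODE M21 transcripts of GRCm38, each on the strand of its gene, and capitals mark the bases that differ within a pair. The window holds 2 differences for Rps3a3 and Rps3a1, 3 for Tpm3-rs7 and Tpm3, and 11 for Gm8778 and Isg20l2.
Rps3a3: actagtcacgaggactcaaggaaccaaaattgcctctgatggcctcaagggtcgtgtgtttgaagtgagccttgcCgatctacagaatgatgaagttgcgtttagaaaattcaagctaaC
Rps3a1: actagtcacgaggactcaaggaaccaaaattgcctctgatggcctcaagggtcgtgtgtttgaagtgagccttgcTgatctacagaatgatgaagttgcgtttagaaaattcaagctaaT
Tpm3-rs7: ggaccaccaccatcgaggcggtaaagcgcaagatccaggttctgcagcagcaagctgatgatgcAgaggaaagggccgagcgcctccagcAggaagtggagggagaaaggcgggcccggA
Tpm3: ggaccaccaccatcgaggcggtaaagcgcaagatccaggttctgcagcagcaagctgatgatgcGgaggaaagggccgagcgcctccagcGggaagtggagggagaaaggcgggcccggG
Gm8778: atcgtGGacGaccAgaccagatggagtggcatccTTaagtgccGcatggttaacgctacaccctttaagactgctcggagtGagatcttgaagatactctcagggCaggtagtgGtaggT
Isg20l2: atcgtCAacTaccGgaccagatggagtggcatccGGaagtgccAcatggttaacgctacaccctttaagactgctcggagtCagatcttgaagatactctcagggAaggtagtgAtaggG
Across the whole aligned coding part, with gaps left out, mismatches number 9 in 795 bases for the Rps3a pair and 3 in 747 for the Tpm3 pair. For the Isg20l2 pair they number 58 in 1091.

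Rps3a3 was almost silent in WT cells and abundant in both Cre-carrying genotypes. It had 187, 194, 174 and 161 CPM in KO libraries, 178, 183, 173 and 162 CPM in Het libraries, and 1.59, 2.61, 2.15 and 1.79 CPM in WT libraries. KO and Het overlapped, and both lay far above WT. The log2 change in KO against WT was 6.45 (SE 0.12, edgeR quasi-likelihood adjusted p = 4.23e-12). Its gene Rps3a1 had 271, 263, 238 and 212 CPM in KO libraries, 241, 231, 230.1 and 240.4 CPM in Het libraries, and 469, 477, 448 and 469 CPM in WT libraries. No KO or Het library reached the lowest WT library. Rps3a1 fell by 0.92 on the log2 scale (SE 0.07, edgeR quasi-likelihood adjusted p = 3.67e-05), to 52.8% of the WT mean.

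Tpm3-rs7 and Tpm3 moved in the same 2 directions. Tpm3-rs7 had 77.5, 80.6, 88.3 and 79.6 CPM in KO libraries, 79.3, 77.3, 80.3 and 75.9 CPM in Het libraries, and 5.61, 6.41, 6.89 and 7.03 CPM in WT libraries. The Cre-carrying groups again overlapped each other and not WT, and the log2 change in KO against WT was 3.65 (SE 0.08, edgeR quasi-likelihood adjusted p = 1.01e-11). Tpm3 had 185, 189, 198 and 188 CPM in KO libraries, 185, 193, 186 and 203 CPM in Het libraries, and 276, 281, 292 and 282 CPM in WT libraries. It fell to 67.2% of the WT mean, a log2 change of -0.57 (SE 0.05, edgeR quasi-likelihood adjusted p = 0.000119), and this call was lost with replicates 3 and 4 alone (edgeR quasi-likelihood adjusted p = 0.514). Among the other 26 tested genes of actin and tropomyosin 0 passed the test, and Pfn1, the actin monomer binder profilin, had a log2 change of -0.13 (SE 0.08).

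Gm8778 showed the same order at a low level, and its far more abundant nearest gene was not called. It had 18, 15, 17 and 14 counts in KO libraries, 21, 14, 14 and 22 in Het libraries, and 0, 0, 1 and 0 in WT libraries. KO and Het overlapped and neither overlapped WT. The summed counts of 64 in KO and 1 in WT gave a ratio of 59.8 per unit of depth, with an exact 95% interval of 10.4 to 2398 that covers counting error only, and the gene passed edgeR's quasi-likelihood test with an adjusted p of 0.000349. It was not called in replicates 1 and 2 alone or in replicates 3 and 4 alone. Isg20l2 had 172 ± 12.9 CPM in KO, 167 ± 10.7 CPM in Het and 175 ± 7.60 CPM in WT cells (SD, n = 4 each), with a log2 change of -0.02 (SE 0.07, edgeR quasi-likelihood adjusted p = 0.990). Gm8778 averaged 1.07 CPM in KO, less than these SDs, so an opposite change of that size in Isg20l2 could not have been seen.

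**Figure D2:**
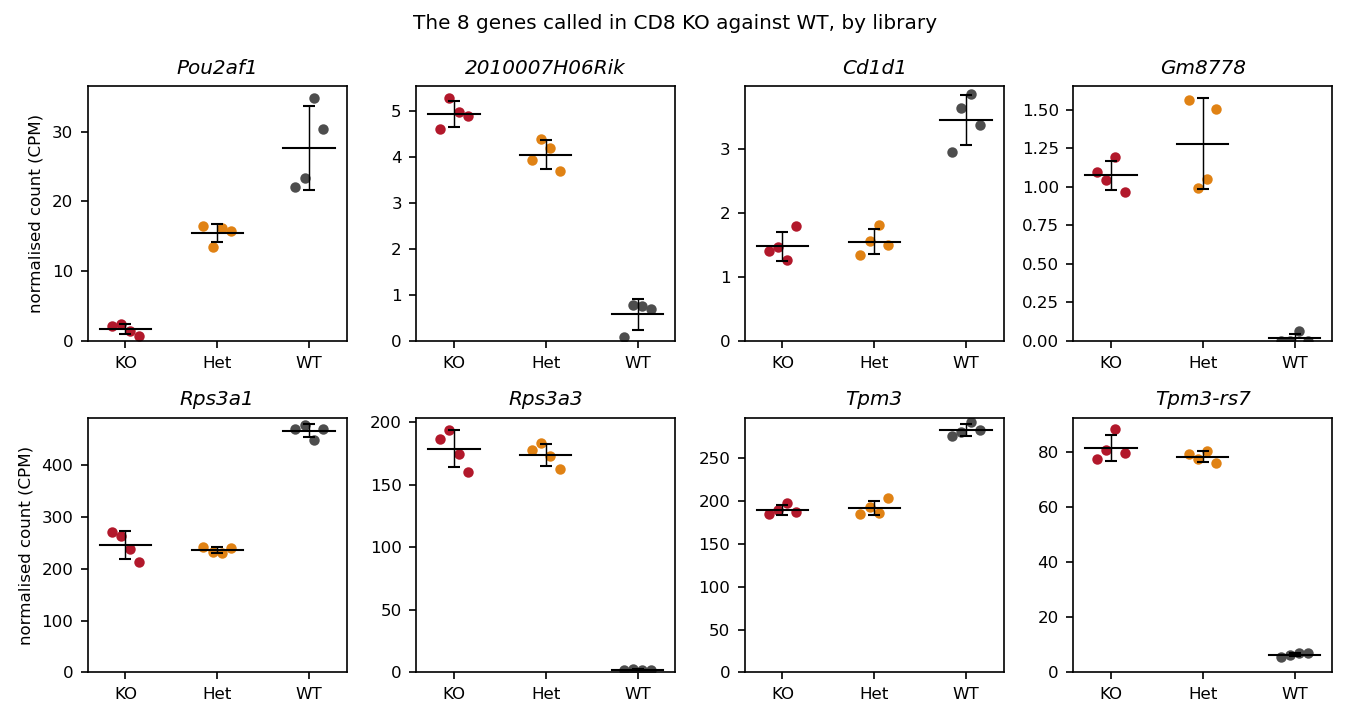
Normalised counts (CPM, linear axes starting at 0) of the 8 called genes in the 4 KO, 4 Het and 4 WT libraries. Points are libraries, the wide bar is the mean and the error bar the SD. KO and Het libraries lie together and away from WT in 6 panels. For Pou2af1 and 2010007H06Rik, KO libraries also lie apart from Het libraries, but of these only Pou2af1 was called in KO against Het.

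Gene and copy were also added together, since the table assigns only reads it could place at 1 site. Rps3a1 plus Rps3a3 came to 457, 458, 413 and 373 CPM in KO libraries and 471, 479.7, 449.9 and 471 CPM in WT libraries. These sums overlapped at the upper KO and lower WT libraries, and averaged 425 ± 40.7 CPM in KO, 409.9 ± 8.203 CPM in Het and 468 ± 12.7 CPM in WT cells (SD, n = 4 each), 90.9% of WT in KO (exact 2-sided permutation p = 0.0857, adjusted p = 0.129 over 3 pairs). Tpm3 plus Tpm3-rs7 averaged 271 ± 10.4 CPM in KO, 270.2 ± 6.42 CPM in Het and 289 ± 7.30 CPM in WT cells, 93.8% of WT in KO (exact 2-sided permutation p = 0.0571, adjusted p = 0.129). Isg20l2 plus Gm8778 averaged 173 ± 12.9 CPM in KO and 175 ± 7.63 CPM in WT cells (exact 2-sided permutation p = 0.829). That sum was almost wholly Isg20l2, so it says little about Gm8778. For the first 2 pairs the difference of the sum was smaller than that of either gene alone, and no sum passed. The smallest p that 4 against 4 libraries allow is 0.0286, so 1 changed pair alone among 3 could not have passed after adjustment. These tests thus do not settle whether the totals are equal. Every Het sum lay below every WT sum in these 2 pairs, at 403 to 419 against 450 to 480 CPM for Rps3a1 plus Rps3a3. For Tpm3 plus Tpm3-rs7 they were 264 to 279 against 281 to 299 CPM.

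The share of the pair that was assigned to the copy was nearly constant within a genotype. Rps3a3 took 40.8% to 43.1% of its pair in KO, 40.3% to 44.2% in Het and 0.338% to 0.544% in WT libraries. Tpm3-rs7 took 29.6% to 30.9% in KO, 27.2% to 30.1% in Het and 2.0% to 2.43% in WT libraries. Gm8778 took 0.549% to 0.668% in KO, 0.618% to 0.891% in Het and at most 0.0341% in WT libraries. No share overlapped between WT and either Cre-carrying group. The Rps3a3 transcript matched 17 other genes in all, Rps3a1 among them, and that of Tpm3-rs7 matched 15, Tpm3 among them. Reads placed at the further genes are not in these sums and shares.

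Cd1d1, whose product shows lipids to invariant natural killer T cells, was the remaining call. Cd1d1 (ENSMUSG00000028076.12, GRCm38 chromosome 3, 86995834 to 86999441) had 1.40, 1.46, 1.262 and 1.79 CPM in KO libraries, 1.34, 1.56, 1.81 and 1.51 CPM in Het libraries, and 2.96, 3.64, 3.86 and 3.38 CPM in WT libraries. Neither Cre-carrying group overlapped WT. It fell by 1.22 on the log2 scale (SE 0.17, edgeR quasi-likelihood adjusted p = 0.0137), to 42.8% of WT. These are raw counts of 18 to 26 in KO and 39 to 61 in WT libraries, and the call held in 14 of 25 alternatives. It was lost without KO replicate 1, 2 or 3 or WT replicate 2, 3 or 4, as without KO replicate 2 (edgeR quasi-likelihood adjusted p = 0.0607).

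Genes around these chromosome 3 loci also differed more often than elsewhere, a stretch singled out after its values were seen and so given as a description. Between 80 and 90 Mb of chromosome 3, 10 of 95 tested genes (10.5%) had an unadjusted p under 0.05 in KO against WT, beside 2.89% of all genes, and the next highest of the 91 stretches of 10 Mb with at least 50 tested genes had 7.94%. Some stretches with fewer tested genes had higher shares, such as 4 of 21 (19%) between 80 and 90 Mb of chromosome 2. The same stretch held 10 such genes (10.5%) in Het against WT, which shares the WT libraries, beside 1.74% of all genes in that comparison. In KO against WT of CD4 cells it held 11 (11.6%), beside 2.22% of all genes in that comparison. In KO against Het it held 6 (6.32%), beside 6.83% of all genes. Here 2 called genes, Rps3a1 and Cd1d1, are among the 10, and Tpm3 lies just past 90 Mb. The genes were not all the same between comparisons. Of the 10, Rps3a1, Rnu73b, Cd1d1, Gm37116 and Ube2q1 had such a p in Het against WT and in CD4 cells. Fbxw7, Dclk2, Sh2d2a, Ubqln4 and Hax1 had it in neither. Rnu73b lies within Rps3a1.

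The uncalled genes of this stretch moved both ways. Ubqln4, an adaptor of the proteasome, had 74.8, 70.3, 74.2 and 77.2 CPM in KO libraries and 87.5, 88.8, 85.5 and 80.2 CPM in WT libraries, without overlap but at an adjusted p of 0.987 (edgeR quasi-likelihood). The ubiquitin-conjugating enzyme gene Ube2q1 had a log2 change of -0.22 (SE 0.05). Dclk2, a microtubule-associated kinase, lay higher in every KO library, at 32.1, 37.5, 29.2 and 35.6 CPM in KO and 22.4, 21.3, 14.5 and 25.6 CPM in WT. Before this stretch on chromosome 3, Golim4 of the Golgi had 31.1, 26.7, 30.01 and 28.1 CPM in KO and 35.1, 36.4, 37.6 and 34.1 CPM in WT libraries. The splicing regulator Mbnl1, also before it, had a log2 change of 0.29 (SE 0.07), again without overlap. Neither passed over all genes.

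**Figure D3:**
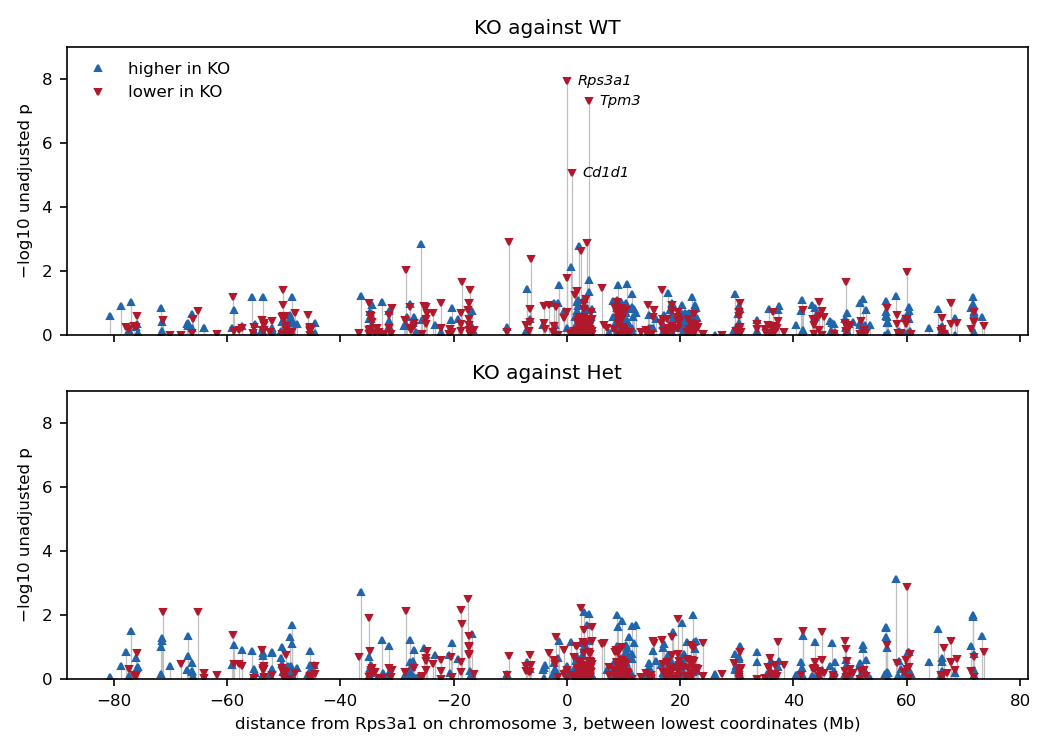
The 650 tested genes of chromosome 3 by their distance from Rps3a1 (x axis, Mb) and the −log10 of the unadjusted p of edgeR's quasi-likelihood test (y axis), for KO against WT above and KO against Het below. Upward triangles are higher and downward triangles lower in KO. In KO against WT the 3 called genes stand within 4 Mb of Rps3a1, and none is called in KO against Het.

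KO against Het sets 2 Cre-carrying genotypes side by side. It gave 2 calls of 12612 (0.0159%) by edgeR's quasi-likelihood test after adjustment, Pou2af1 and Tmod3, and 862 genes (6.83%) with an unadjusted p under 0.05. The 6 called genes other than Pou2af1 and 2010007H06Rik had log2 changes in KO against Het of 0.06 for Rps3a1, -0.02 for Tpm3, -0.07 for Cd1d1, 0.04 for Rps3a3, 0.06 for Tpm3-rs7 and -0.25 for Gm8778, none called. 2010007H06Rik had 0.28 (SE 0.26, edgeR quasi-likelihood adjusted p = 0.829) and was not called either. Tmod3, which caps the pointed ends of actin filaments, had 220.0, 196, 229.8 and 232 CPM in KO libraries, 110, 107, 114 and 99.0 CPM in Het libraries, and 207, 218, 218 and 242 CPM in WT libraries. Het stood apart from both, while KO and WT overlapped (KO against Het 1.03, SE 0.07, edgeR quasi-likelihood adjusted p = 4.44e-05, and KO against WT -0.01, SE 0.07, edgeR quasi-likelihood adjusted p = 0.997).

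The knockout difference was also set against that of CD4 cells in one fit of all 24 libraries. Only 1 of 13288 genes (0.00753%) passed edgeR's quasi-likelihood test of the difference of differences, Gm38326, and 228 (1.72%) had an unadjusted p under 0.05. In CD4 cells of that fit 9 genes (0.0677%) were called in KO against WT. The log2 changes of the genes called in CD8 cells were there -0.93 for Rps3a1, -0.55 for Tpm3, -0.79 for Cd1d1, 6.47 for Rps3a3, 3.66 for Tpm3-rs7, 3.25 for 2010007H06Rik and -4.12 for Pou2af1, and Gm8778, with almost no WT counts, was higher too. Of these Cd1d1 was not called in CD4 cells, but its difference between the cell types was -0.44 (SE 0.45, edgeR quasi-likelihood adjusted p = 1.0).

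Genes that work with POU2AF1, or have been reported to depend on it, did not pass the test. Of 10 tested, 5 lay above and 5 below WT, with a median log2 change of 0.03 (-0.00 without KO replicate 2) and 0 with an unadjusted p under 0.05. The partner gene Pou2f1 had 63.3, 87.1, 61.6 and 60.5 CPM in KO libraries and 64.2, 65.5, 56.8 and 60.05 CPM in WT libraries. They overlapped, with KO replicate 2 the highest, and the log2 change was 0.14 (SE 0.13) with all libraries and 0.00 without that one. The coactivator gene Ep300 had a log2 change of 0.07 (SE 0.08). The interferon gamma gene Ifng had 231, 225, 271 and 255 CPM in KO libraries and 265, 226, 319 and 239 CPM in WT libraries, a log2 change of -0.09 (SE 0.12). The repressor gene Bcl6 had 8.58, 16.0, 2.81 and 3.52 CPM in KO libraries and 7.81, 6.49, 3.54 and 5.24 CPM in WT libraries. Its log2 change of 0.43 (SE 0.50) became -0.20 without KO replicate 2.

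The octamer ATGCAAAT, the site that POU2F1 and POU2F2 bind, was looked for on both strands (reverse complement ATTTGCAT) in RefSeq promoters of GRCm38, from 250 bases before to 50 bases after a gene's start. It was in 0 of the 3 called genes with a promoter in the table, in 0 of 18 among the 20 uncalled genes of lowest p, in 1.6% of the 9073 tested genes with a promoter, and in 1.97% of all 27025 genes of the table. These letters were not in those windows, and nothing follows from that about binding.

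The cytotoxic programme was close to WT in level. Of 17 cytolytic genes, which encode granzymes, perforin and the release machinery, 9 lay above and 8 below WT with a median log2 change of 0.01 and a range of -0.08 to 0.36, and 0 had an unadjusted p under 0.05. Without KO replicate 2, 6 of 17 lay above WT with a median of -0.06. The granule proteoglycan gene Srgn had 329, 505, 259 and 232 CPM in KO libraries and 272, 252, 257 and 265 CPM in WT libraries. KO replicates 1 and 2 lay above every WT library. The log2 change was 0.34 (SE 0.18) with all libraries and 0.06 without KO replicate 2. The lysosomal membrane gene Lamp1, a marker of degranulation, had -0.07 (SE 0.06).

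Identity, fate and receptor genes gave no call either. Of 11 CD8 lineage genes 8 lay above WT with a median of 0.05, but without KO replicate 2 only 3 did, with a median of -0.03. Zbtb7b, the CD4 lineage factor, had 7.66, 16.2, 2.87 and 3.31 CPM in KO libraries and 6.45, 3.96, 2.91 and 5.38 CPM in WT libraries, which overlap. Of 18 naive and memory genes 11 lay above WT with a median of 0.01, against 4 with a median of -0.08 without KO replicate 2. Slamf6, a receptor of progenitor-like T cells, had 70.1, 66.6, 70.6 and 70.9 CPM in KO libraries and 78.1, 79.6, 100.5 and 83.5 CPM in WT libraries. All KO libraries lay below all WT libraries, by a log2 change of -0.30 (SE 0.08), but the edgeR quasi-likelihood adjusted p was 0.987. Of 21 effector differentiation factors 12 lay above WT with a median of 0.04, with Il12rb1 of the interleukin 12 receptor at 0.28 (SE 0.13) and the repressor Zeb2 at 0.49 (SE 0.23), or 0.17 for Il12rb1 and 0.12 for Zeb2 without KO replicate 2. Of 13 inhibitory receptors 7 lay above WT with a median of 0.04 (0.02 without KO replicate 2), and Havcr2, which encodes TIM-3, had 0.86 (SE 0.46) at levels under 2 CPM in every library.

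Activation and signalling genes were mixed. Of 28 genes of T cell receptor signalling 17 lay above WT with a median of 0.02. An unadjusted p under 0.05 was reached by 3 (10.7%, beside 2.89% of all genes). Without KO replicate 2, 9 lay above WT with a median of -0.02 and 1 had such a p. The kinase gene Fyn had 269, 325, 254 and 249.6 CPM in KO libraries and 239, 233, 246 and 256 CPM in WT libraries, which overlap, a log2 change of 0.17 (SE 0.08), or 0.08 without KO replicate 2. Of 18 interleukin 2 and STAT5 genes 14 lay above WT with a median of 0.04 (0.07 without KO replicate 2, and -0.03 without KO replicate 4), and the kinase gene Pim1 had 0.24 (SE 0.11). Of 17 costimulatory genes 11 lay above WT with a median of 0.05 (0.04 without KO replicate 2), and Tnfsf8, the ligand of CD30, had 0.34 (SE 0.16). Of 11 effector cytokine genes 9 lay above WT with a median of 0.21, which was 0.01 without KO replicate 4 and 0.37 without KO replicate 1, with Csf2 at 0.47 (SE 0.31), or 0.13 without KO replicate 2, and Csf1 at 0.38 (SE 0.29). None of these genes was called.

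Chemokines and homing receptors gave 3 genes with an unadjusted p under 0.05 and no call. Such a p was reached by 11.1% of the ligand genes and 9.52% of the receptor genes, beside 2.89% of all genes. Of 9 chemokine ligand genes 5 lay above WT with a median of 0.10 (0.01 without KO replicate 2), and Cxcl10, an interferon-induced attractant of activated T cells, had 8.09, 12.7, 5.12 and 13.9 CPM in KO libraries and 4.17, 2.06, 2.15 and 8.55 CPM in WT libraries. The groups overlapped at KO replicate 3 and WT replicate 4, and the log2 change was 1.23 (SE 0.46). Of 21 chemokine and homing receptors 9 lay above and 12 below WT with a median of -0.13 (-0.07 without KO replicate 2). Selplg, the ligand of P-selectin, had -0.14 (SE 0.06) and the follicle-homing receptor Cxcr5 had -0.35 (SE 0.15).

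Interferon response genes lay above WT as a list, without a call. All 35 tested type I interferon response genes had a higher mean in KO, beside 50.9% of all genes. Their median log2 change was 0.64, beside 0.0026 for all genes, and 4 (11.4%, beside 2.89% of all genes) had an unadjusted p under 0.05. The list median in each library, as a log2 difference from the WT mean, was 0.87, 0.81, 0.04 and 0.97 in KO libraries, -0.59, -0.45, 0.54 and -1.17 in Het libraries, and 0.44, -0.23, -0.98 and 0.83 in WT libraries. The KO and WT libraries overlapped, with KO replicate 3 low and WT replicates 1 and 4 high. Leaving out 1 library at a time gave medians of 0.36 (without WT replicate 3) to 0.98 (without WT replicate 4).

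Single interferon genes showed the same overlap. Rtp4 had 19.3, 20.2, 9.18 and 19.2 CPM in KO libraries and 13.7, 7.44, 4.87 and 11.7 CPM in WT libraries, a log2 change of 0.85 (SE 0.36). The antiviral genes Oas1a and Ifit3b had 1.28 (SE 0.55) and 1.01 (SE 0.44). Outside the list, Irgm1 and Irf1 were named because their groups did not overlap, as for 1.02% of all genes that were higher in KO. Irgm1, a GTPase of cell-autonomous immunity, had 234, 235, 217 and 226 CPM in KO libraries and 185, 173, 162 and 202 CPM in WT libraries, and Irf1 had 217, 269.8, 208 and 233 CPM in KO libraries and 202, 184, 186 and 203 CPM in WT libraries. Their log2 changes were 0.34 (SE 0.09) and 0.26 (SE 0.08), both at an adjusted p of 0.987 in edgeR's quasi-likelihood test. Of 20 MHC class I genes 17 lay above WT with a median of 0.12, as for H2-Q4 at 0.22 (SE 0.13), and without KO replicate 2 the median was 0.04 and H2-Q4 0.11.

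Against Het the interferon list was also higher, as all 35 genes lay above Het with a median log2 change of 1.12, while Het against WT had a median of -0.38. The 2 comparisons share the Het libraries and the first shares its KO libraries with KO against WT. In CD4 cells 34 of 35 lay above WT with a median of 0.32, and 0 of the 35 passed edgeR's quasi-likelihood test of a difference between the cell types.

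**Figure D4:**
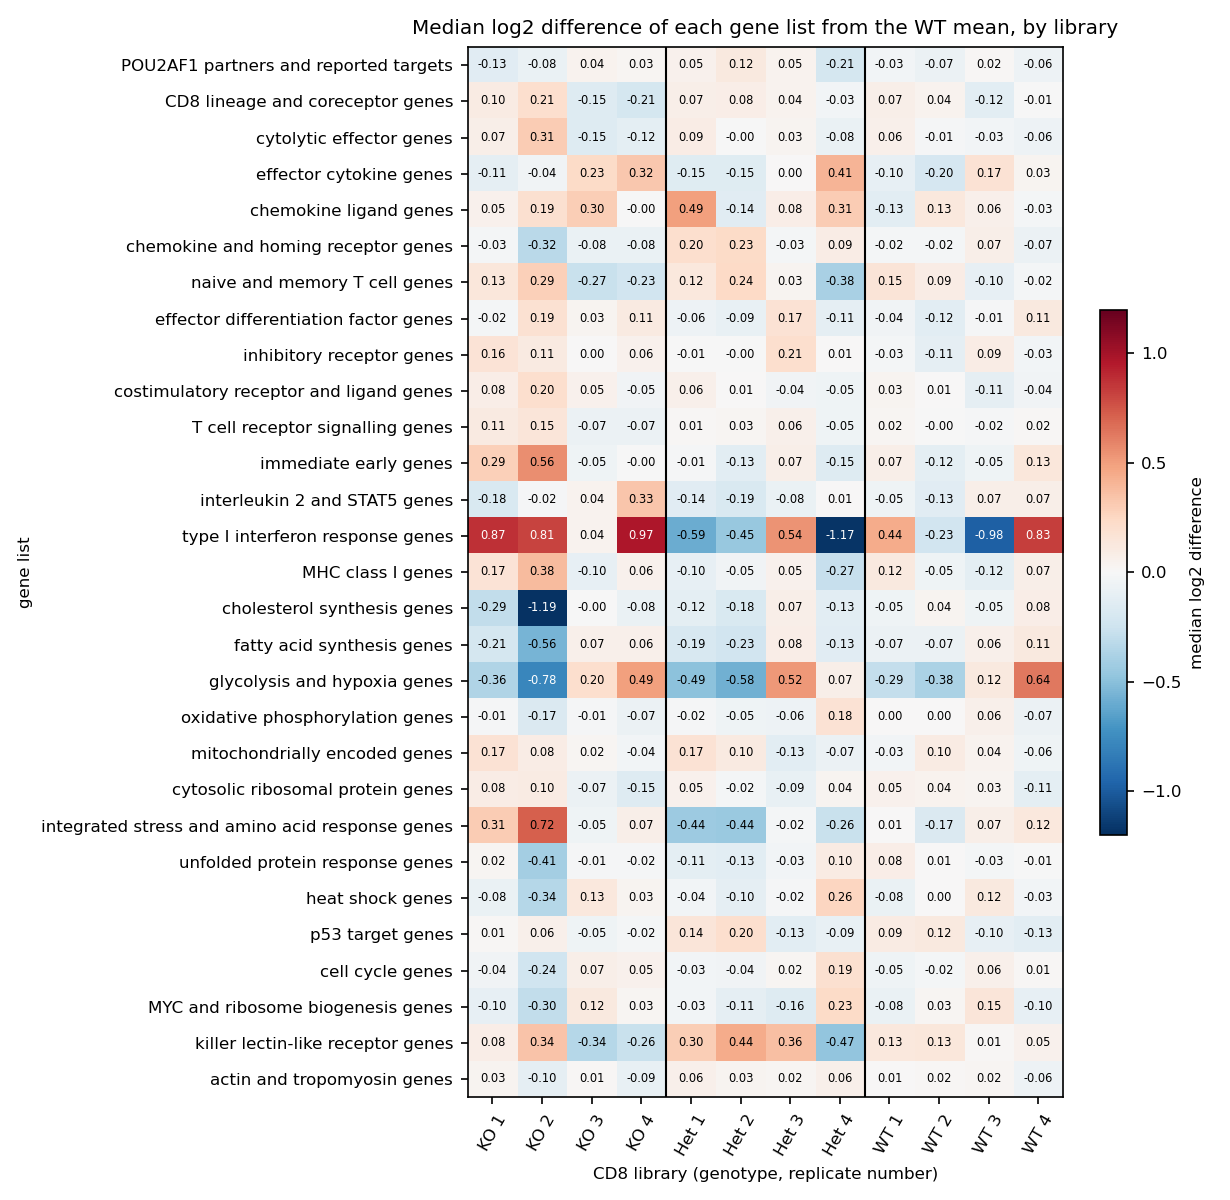
Median log2 difference of each of 29 gene lists from the WT mean (colour and printed value), with gene lists in rows and the KO, Het and WT libraries in columns. The interferon row varies from library to library within every genotype, and KO 2 lies farthest from 0 of the 12 libraries in the cholesterol, glycolysis, integrated stress and immediate early rows.

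Genes of the integrated stress response, which ATF4 turns on when amino acids run short or translation is impaired, all lay above WT, and most of all in KO replicate 2. Of 24 tested, 24 lay above WT with a median log2 change of 0.32, and 8 (33.3%, beside 2.89% of all genes) had an unadjusted p under 0.05, with 0 called. The list median by library was 0.31, 0.72, -0.05 and 0.07 in KO and 0.01, -0.17, 0.07 and 0.12 in WT. KO replicates 3 and 4 lay within the WT range. Without KO replicate 2 the median was 0.085, 21 of 24 lay above WT and 0 had an unadjusted p under 0.05.

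Individual stress genes followed that library. Atf5 had 13.0, 36.3, 6.87 and 9.31 CPM in KO libraries and 7.58, 8.63, 5.94 and 8.204 CPM in WT libraries, and its log2 change of 1.11 (SE 0.41) was 0.36 without KO replicate 2. The pseudokinase gene Trib3 had 38.4, 106, 22.2 and 28.3 CPM in KO libraries and 21.3, 15.7, 20.9 and 28.5 CPM in WT libraries, with 1.17 (SE 0.44) and 0.45 for the same fits. Sesn2, an inhibitor of mTORC1, had 0.70 (SE 0.27) and 0.28. Cebpb had 7.60, 15.7, 7.15 and 8.96 CPM in KO libraries and 4.93, 4.91, 5.75 and 6.55 CPM in WT libraries, which do not overlap, with log2 changes of 0.83 (SE 0.34) and 0.51. In CD4 cells 2 of 24 of these genes lay above WT, with a median of -0.11, and 0 passed edgeR's quasi-likelihood test of a difference between the cell types.

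Sterol synthesis genes ran the other way in the same library. All 24 cholesterol synthesis genes lay below WT, beside 49.1% of all genes, with a median log2 change of -0.34. An unadjusted p under 0.05 was reached by 3 (12.5%, beside 2.89% of all genes) and 0 were called. The list median was -0.29, -1.19, -0.00 and -0.08 in KO libraries and -0.05, 0.04, -0.05 and 0.08 in WT libraries. Nsdhl, a sterol dehydrogenase, had 37.3, 24.8, 40.9 and 41.6 CPM in KO libraries and 45.05, 51.4, 46.2 and 49.0 CPM in WT libraries, so all KO libraries lay below all WT libraries, at -0.41 (SE 0.13). Tm7sf2 had -0.51 (SE 0.22) and Dhcr7 -0.41 (SE 0.18), both reductases of the pathway, and without KO replicate 2 these were -0.33 for Tm7sf2 and -0.22 for Dhcr7. Without KO replicate 2 the median was -0.13, and still 0 of 24 lay above WT and 3 had an unadjusted p under 0.05.

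Other metabolic lists had smaller medians, and some turned when a library was left out. Of 13 fatty acid synthesis genes 12 lay below WT with a median of -0.15, as for Fasn at -0.21 (SE 0.15), and without KO replicate 2 the median was -0.04 and Fasn -0.07. Of 25 glycolysis and hypoxia genes 20 lay below WT with a median of -0.10, and without KO replicate 2 the median was 0.08 with 22 above WT. Leaving out other libraries gave -0.28 (without KO replicate 4) to 0.15 (without WT replicate 4). By library the list median was -0.36, -0.78, 0.20 and 0.49 in KO, -0.49, -0.58, 0.52 and 0.07 in Het and -0.29, -0.38, 0.12 and 0.64 in WT, so replicates 1 and 2 lay below 0 and replicates 3 and 4 above 0 in every genotype. Of 42 nuclear oxidative phosphorylation genes 37 lay below WT with a median of -0.06 (-0.04 without KO replicate 2), and 6 of 7 mitochondrially encoded genes lay above with a median of 0.05. Of 74 cytosolic ribosomal protein genes Rps3a1 was the only call, and the list had a median of -0.02 with 28 above WT (-0.06 and 12 without KO replicate 2).

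Immediate early genes, which T cell receptor signals induce within minutes, lay mostly above WT. Of 23 tested, 21 were higher, beside 50.9% of all genes, with a median of 0.20. An unadjusted p under 0.05 was reached by 3 (13%, beside 2.89% of all genes). The list median was 0.29, 0.56, -0.05 and -0.00 in KO libraries and 0.07, -0.12, -0.05 and 0.13 in WT libraries. The median was 0.081 without KO replicate 2, and 17 lay above WT. Atf3, also a stress response factor, had 24.1, 37.1, 22.2 and 27.996 CPM in KO libraries and 18.5, 12.7, 16.6 and 20.5 CPM in WT libraries, without overlap. Its log2 change was 0.70 (SE 0.19, edgeR quasi-likelihood adjusted p = 0.987) and 0.53 without KO replicate 2. Against Het, where libraries had 11.3 to 17.1 CPM, it was 1.06 (SE 0.19, edgeR quasi-likelihood adjusted p = 0.341), and it was called there without a filter on low counts and with DESeq2. The phosphatase gene Dusp1 had 0.44 (SE 0.19) and Fos 0.64 (SE 0.29) in KO against WT, or 0.25 for Dusp1 and 0.35 for Fos without KO replicate 2. Without KO replicate 2 the list median was 0.081, with 17 of 23 above WT.

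Proliferation and protein quality lists stayed near 0. Of 41 cell cycle genes 14 lay above WT with a median of -0.02, against 27 with a median of 0.02 without KO replicate 2. Cdkn2c, an inhibitor of cyclin D kinases, was higher in every KO library, at 21.0, 25.8, 21.9 and 23.7 CPM in KO and 19.3, 17.1, 20.9 and 18.3 CPM in WT (log2 change 0.29, SE 0.09). Of 24 MYC and ribosome biogenesis genes 19 lay below WT with a median of -0.05, while without KO replicate 2 13 lay above, with a median of 0.01. Of 21 p53 targets 9 lay above WT with a median of -0.01, and Fas had 0.24 (SE 0.12), or 0.11 without KO replicate 2. Of 20 unfolded protein response genes 14 lay below WT with a median of -0.08, with Herpud1 at 0.28 (SE 0.13) and the chaperone gene Creld2 at -0.27 (SE 0.12). Without KO replicate 2 the median was 0.01, Herpud1 0.15 and Creld2 -0.16. Of 16 heat shock genes 12 lay below WT with a median of -0.07, while without KO replicate 2 10 lay above, with a median of 0.02. Bag3, a cochaperone of HSP70, had 5.72, 5.15, 6.80 and 6.96 CPM in KO libraries and 7.81, 8.31, 8.91 and 7.997 CPM in WT libraries, without overlap, at -0.42 (SE 0.12). Of 10 killer lectin-like receptors 5 lay above WT with a median of -0.00 (-0.30 without KO replicate 2), and the NKG2A gene Klrc1 had 0.57 (SE 0.29), or 0.22 without that library.

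**Figure D5:**
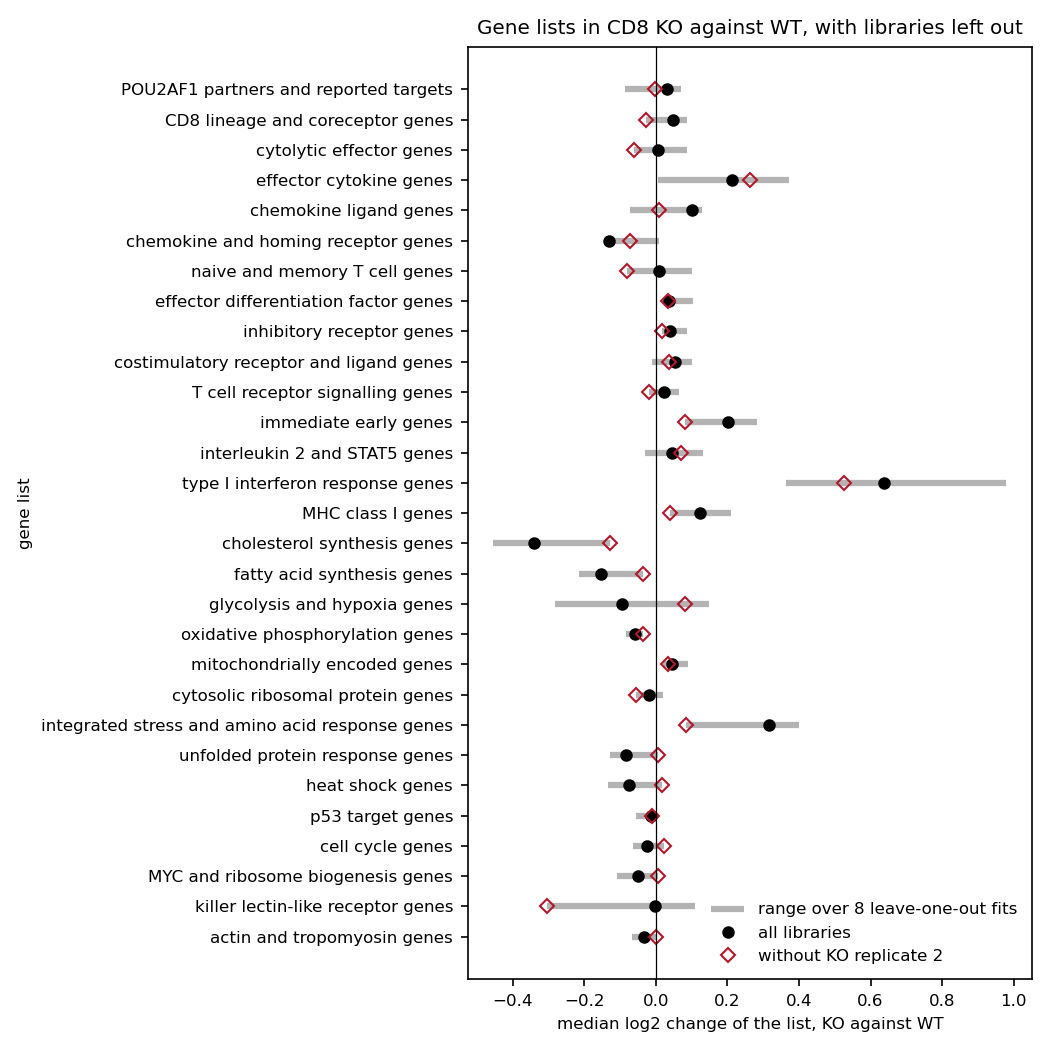
Median log2 change of each gene list in KO against WT (x axis, gene lists in rows), with all libraries (black points), without KO replicate 2 (red diamonds) and over all 8 fits that leave out 1 KO or WT library (grey bars). The integrated stress, cholesterol and immediate early medians move towards 0 without KO replicate 2, and the interferon median stays between 0.36 and 0.98.

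Among all uncalled genes with no overlap between KO and WT and at least 5 CPM, Dennd5a had the lowest p. It encodes an exchange factor for RAB GTPases, and had 67.3, 81.1, 85.9 and 76.5 CPM in KO libraries and 53.1, 50.02, 59.4 and 60.3 CPM in WT libraries, a log2 change of 0.48 (SE 0.11, edgeR quasi-likelihood adjusted p = 0.752). With the split of replicates 1 and 2 against 3 and 4 as a covariate it was called (edgeR quasi-likelihood adjusted p = 0.0353), and in the other 24 alternatives it was not. The remaining genes of lowest p that were higher in KO were the zinc finger genes Zfp617 (0.28, SE 0.09) and Zfp850 (0.22, SE 0.07) and Ifrd1, a transcriptional coregulator, at 0.33 (SE 0.11) with all libraries and 0.20 without KO replicate 2. Those lower in KO were the vesicular nucleotide transporter gene Slc17a9 (-0.27, SE 0.08), Uap1l1 (-0.51, SE 0.15), Sgsm3 (-0.33, SE 0.11) and the RNase P subunit gene Rpp40 (-0.36, SE 0.12). The other adjusted p-values of these 20 genes by edgeR's quasi-likelihood test were 0.987.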

How the data were processed

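The authors deposited raw counts, as whole numbers, for 55401 genes per library. Per the submitters' processing notes the tools were Trimmomatic 0.35, STAR 2.7.1a and DESeq2 1.26.0, with genome build GRCm38, and per the labels' protocols RNA was isolated with Trizol and libraries were made with a poly(A) kit. The annotation release was not given in the sources used here, nor whether counting used strand. Summary lines of the table (unplaced, multiply placed and ambiguous reads) were left out of totals and tests and held 32.4% to 33.5% of entries in KO and 32.6% to 33.4% in WT libraries. The deposited normalized signal (counts divided by a size factor) was used in 1 alternative.

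In R 4.3.3, edgeR 4.0.16 fitted the 12 CD8 libraries (filterByExpr, minimum count 10, TMM factors 0.989 to 1.02, 9 residual degrees of freedom), with a 2-sided quasi-likelihood F test and Benjamini-Hochberg adjustment. Difference from CD4 used all 24 libraries (18 degrees of freedom). The SE of a log2 change was that change divided by the root of its F value. No fold threshold was used, and the fit was tested on simulated data. Copies were found with blastn 2.17.0 among GENCODE M21 transcripts. Sums and library measures used exact permutation tests over 70 assignments.

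Named genes were Pou2af1, all called genes, 10 uncalled genes each way of lowest p (at least 5 CPM, no overlap, no Gm or Rik names), genes called only with a replicate term, members of lowest p of each list (2 to 4), and tested genes within 1 Mb of Pou2af1. Isg20l2, Colca2 and 1810046K07Rik were added to these with their values already seen. Some genes that this rule would name are not reported here. Members and lists were chosen with earlier results of these data known. Same-numbered KO and WT libraries were not taken as pairs. No pair of libraries within KO or WT agreed within sampling noise (chi-square per degree of freedom 3.29 to 46.3). A count of 3 is the floor per library, for counting error only.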

Additional observations from a re-analysis of the deposited data

Results flagged for a closer look

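Within groups of 4 libraries, 8 values of 126 groups checked stood apart from the other 3 by Dixon's criterion, where chance gives about 1 in 20 (6.3). Gm8778 had 0.0632 CPM in WT replicate 3 and 0 in the other WT libraries, a single read. 2010007H06Rik had 0.0758 CPM in WT replicate 1, below 0.689 to 0.791 CPM in the other WT libraries. Zfp850 had 51.0 CPM in WT replicate 3, below 55.4 to 55.7 CPM in the others. The interferon list had a median log2 difference of 0.0445 in KO replicate 3, against 0.81 to 0.97 in the other KO libraries. The unfolded protein response list stood at -0.41 in KO replicate 2, against -0.02 to 0.02 in the other KO libraries. The ribosomal protein list stood at -0.11 in WT replicate 4, against 0.03 to 0.05 in the other WT libraries. KO replicate 1 had the deepest library of its group, 16.6 megacounts against 14.4 to 14.5 megacounts, and KO replicate 4 the lowest mitochondrial share, 3.55% against 3.79% to 3.83%.

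The knockout difference of Gm38326 (GRCm38 chromosome 3, 60788361 to 60794730) was unequal between the cell types, with a CD8 minus CD4 log2 difference of -5.82 (SE 0.59, edgeR quasi-likelihood adjusted p = 2.26e-05). It had 3, 0, 2 and 2 counts in CD8 KO libraries and 3, 2, 4 and 3 in CD8 WT libraries, at or near the floor of 3 counts, so no CD8 fold is given and the size of the difference depends on the prior count of the fit. In CD4 cells it had 106, 85, 96 and 86 counts in KO libraries and 4, 3, 1 and 6 in WT libraries.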

How the results depend on the processing

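Rps3a3, Tpm3-rs7, Rps3a1 and Pou2af1 were called in all 25 alternatives, 2010007H06Rik and Tpm3 in 24, Gm8778 in 22 of 24 and Cd1d1 in 14. In replicates 1 and 2 alone 5 genes were called, 2 higher and 3 lower, without Cd1d1, Gm8778 and 2010007H06Rik. In replicates 3 and 4 alone 5 were called, 3 higher and 2 lower, without Cd1d1, Tpm3 and Gm8778. The cause was not tested, but each keeps 2 libraries a group. Other settings (scaling, filter, DESeq2 1.42.0, limma 3.58.1, the deposited normalized values, sex, 8 or 24 libraries) gave 7 to 9 calls. KO against Het gave 19 calls with DESeq2, and 2 to 4 with 1 library left out (4 without Het replicate 3, adding Lratd2 and Irgm1). With the replicate number as a block 8 genes were called in KO against WT and 2 in KO against Het. Same-numbered KO and WT libraries correlated at 0.0464 to 0.455 in their deviations, and 3 of 4 KO libraries correlated best with their own number, a hint from the data and not the design. In replicates 3 and 4 alone, uncalled genes turned sign: Bcl6 -0.46, Zbtb7b -0.41, Srgn -0.084, Csf2 -0.074, Pim2 0.023, Fasn 0.00012, Herpud1 -0.010, Ppan 0.0080, Klrc1 -0.046 and Tmod3 0.012. With 1 library left out, Bcl6 ran from -0.20 (without KO replicate 2) to 0.70, Zbtb7b from -0.0038 (likewise) to 0.95, Ifng from -0.16 to 0.010 and Tmod3 from -0.045 to 0.040. Depth limits genes under about 1 CPM, where 3 counts are 0.181 to 0.239 CPM.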
